A study of Mus musculus with 24 samples.

Results

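The retina of C57Bl/6 mouse pups raised in room air was compared between postnatal day 12 and postnatal day 7. All arrays titled as room air (normoxia) at these 2 ages were taken, which gave 3 arrays of day 12 and 3 of day 7, 6 of the 24 arrays of the series. The other arrays are retinas of pups of the same strain exposed to hyperoxia for 120 hours up to day 12 and for 12 hours up to day 7, and retinas of both conditions at days 8 and 10, with 3 arrays in each of the 8 groups. The labels give no treatment or genetic change for the room air pups. They do not give the time of day, the number of pups behind an array, the dissection or whether replicates came from separate animals, so the p-values speak of array-to-array spread alone, part of which may be technical.

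In the second postnatal week the mouse retina finishes its neurons and turns to function. Rods, the photoreceptors of dim light, are among the last neurons born. They then build outer segments, stacks of membrane in which light activates the phototransduction cascade. Müller glia, which span the retina, take up potassium, water and transmitter, and bipolar cells form ribbon synapses with the photoreceptors. Over the same days progenitor cells leave the cell cycle, retinal vessels grow into deeper layers, and the eyes open soon afterwards.

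Each array gave 1 signal for each of 22626 non-control probe sets, the short probe groups by which such an array reads a transcript. The median deposited intensity of the 24 arrays ranged from 571.9 to 680.5. Levels below are quantile-normalised log2 signals, and differences are day 12 over day 7 on the log2 scale, each ± its standard error in a limma fit (n = 3 arrays a group). A difference was called where its Benjamini-Hochberg adjusted p over 15838 tested probe sets was under 0.05. The number of arrays limits the precision.

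Tissue other than retina was measured in these arrays to unequal degrees. The mean log2 signal of 15 lens genes was 7.23, 10.77 and 13.88 in the day 12 arrays, against 13.32, 9.75 and 10.53 in the day 7 arrays. Lens transcripts were thus highest in day 12 replicate 3 and day 7 replicate 1, the groups overlapped, and 0 of the 15 genes passed in the limma test (0 at an unadjusted p under 0.05). Cryaa, the lens chaperone alpha A crystallin, lay at the floor of 7.09 in day 12 replicate 1 and reached 14.78 in day 12 replicate 3. The mean of 12 genes of the pigment epithelium, the pigmented layer behind the photoreceptors, was 10.07, 10.73 and 10.01 in the day 12 arrays, against 8.80, 10.41 and 9.58 in the day 7 arrays. All 12 of these genes had positive differences, with a median of 0.58, and Ttr, the thyroid hormone carrier transthyretin, was the 1 that passed. None passed without day 12 replicate 2, day 7 replicate 1 or day 7 replicate 3, and 4 passed without day 7 replicate 2. The part of either tissue in the results below was not tested beyond the fits without the 2 lens-rich arrays and with a lens or pigment score in the model, which are given beside list counts of 3 or more that they move by over 1.5 times.

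**Figure D1:**
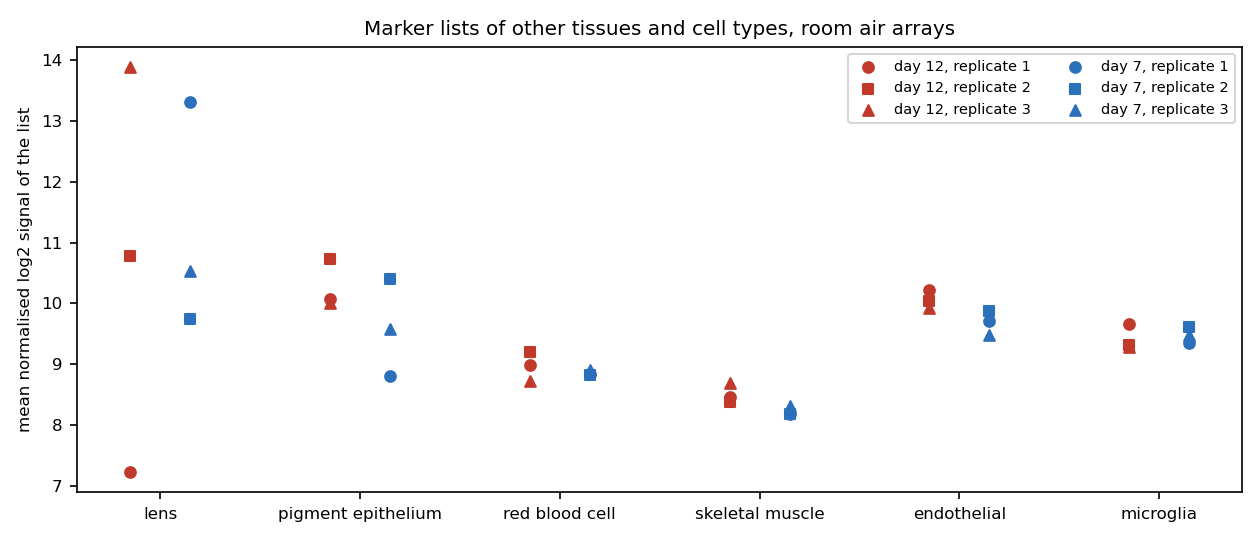
Mean normalised log2 signal of the marker lists of 6 tissues or cell types in each room air array (red, day 12, left; blue, day 7, right; the symbol gives the replicate). The lens list ranged from 7.23 to 13.88 within day 12, a wider spread than in the other 5 lists shown.

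Between day 7 and day 12 many transcripts of photoreceptor function, and some of Müller glia and synaptic transmission, became more abundant. Many of progenitors and some of dividing cells became less abundant. In the limma test 1958 of 15838 probe sets were called (12.4%), of which 1133 were higher (7.15%) and 825 lower (5.21%) at day 12. They stand for 907 and 616 named genes, and 4085 probe sets had an unadjusted p under 0.05. The rises were larger than the falls. At least 4-fold changes were called in 36 probe sets that rose and in 3 that fell, and the most extreme differences were 5.61 and -2.13. The median difference over all tested probe sets was -0.03. The 3 day 12 arrays lay wholly above the 3 day 7 arrays in 2224 probe sets (14%) and wholly below them in 2263 (14.3%), together 28.3% of those tested.

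The arrays did not weigh equally in these calls. Day 7 replicate 2 was the day 7 array nearest to the day 12 level in 649 of the 1133 probe sets that rose (57.3%) and in 410 of the 825 that fell (49.7%). The number called was 1397 without day 12 replicate 2 and 1192 without day 7 replicate 3, and it lay between 1494 and 1809 without any other single array. Without the 2 lens-rich arrays it was 1115, with 1019 of them among the 1958, and with the pigment score in the model it was 1331. In bulk tissue a change in the number of cells of a type and a change in the RNA of each cell cannot be told apart.

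**Figure D2:**
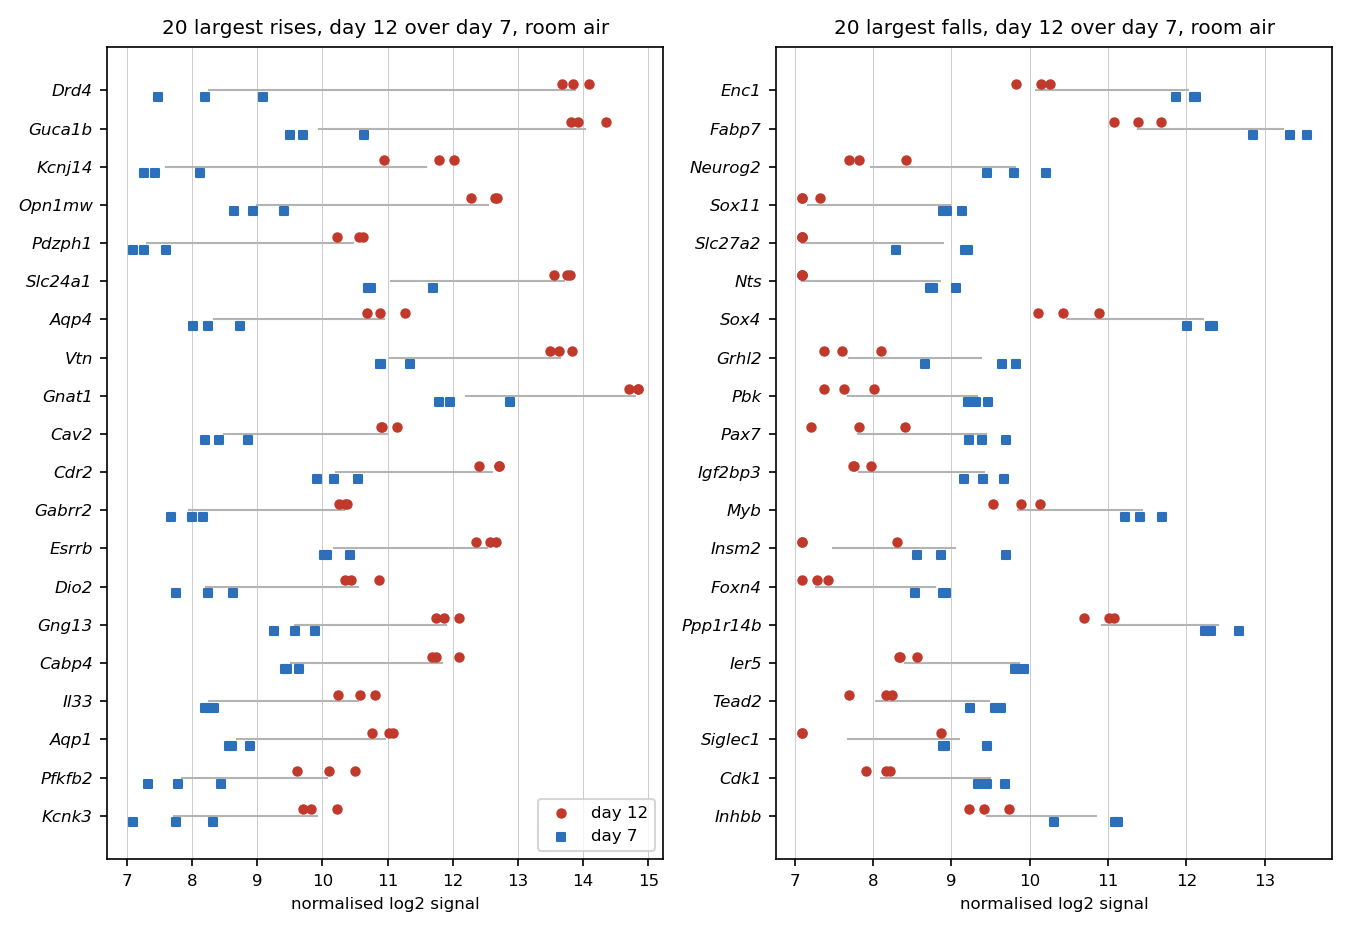
Normalised log2 signal of the 20 largest rises (left) and 20 largest falls (right) among called genes whose groups did not overlap, with day 12 in red and day 7 in blue (1 point per array; the grey line joins the group means). Drd4 is at the top of the rises with a difference of 5.61, and Enc1 at the top of the falls with -1.95.

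Genes of the rod phototransduction cascade rose together. Of 18 tested members 12 rose and 0 fell, with a median difference of 0.68. Over all tested genes, each by its brightest probe set, 8.57% rose, 5.5% fell and the median was -0.02. Gnat1, the alpha subunit of rod transducin, the G protein switched on by light-activated rhodopsin, had signals of 14.70, 14.84 and 14.84 at day 12, against 11.79, 12.88 and 11.95 at day 7. It rose by 2.59 ± 0.30 (6.01-fold, adjusted p = 1.25e-05), and day 7 replicate 2 was the highest of its group. Its partners were already high at day 7. Gnb1, the beta subunit, rose by 0.66 ± 0.13, and Gngt1, the rod gamma subunit, by 0.58 ± 0.17.

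Among the effectors and channels of rods, Pde6a, the alpha subunit of the phosphodiesterase that breaks down cyclic GMP, had 12.08, 12.32 and 12.48 at day 12, against 10.40, 10.57 and 10.15 at day 7 (1.92 ± 0.25, adjusted p = 3.85e-05). The beta subunit, Pde6b, differed by 0.28 ± 0.10 and did not pass (adjusted p = 0.0685), although its groups did not overlap either. Cnga1, the subunit of the cyclic GMP-gated channel that carries the dark current, had 13.50, 13.74 and 13.70 at day 12, against 12.10, 12.33 and 12.06 at day 7 (1.48 ± 0.15, adjusted p = 2.64e-06). Its partner Cngb1 rose by 0.39 ± 0.11. Slc24a1, the exchanger that removes calcium from the rod outer segment, had 13.56, 13.75 and 13.81 at day 12, against 10.71, 11.70 and 10.75 at day 7, a 6.28-fold rise (2.65 ± 0.27, adjusted p = 2.29e-06).

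The largest rise of a phototransduction gene was in Guca1b, one of the calcium sensors that switch guanylate cyclase back on after light. It had 13.81, 14.35 and 13.93 at day 12, against 9.71, 10.64 and 9.50 at day 7, a 16.9-fold difference (4.08 ± 0.31, adjusted p = 9.47e-08). A further probe set of Guca1b differed by 0.13 and did not pass. Guca1a, the sister sensor, rose by 1.15 ± 0.11. Shut-off proteins rose too: Gnb5, which holds the complex that deactivates transducin, by 0.87 ± 0.12, Rcvrn, the calcium sensor recoverin, by 0.51 ± 0.11, and Sag, rod arrestin, by 0.31 ± 0.10. Sag stood at 15.41 in all 3 day 12 arrays, among the highest signals of the arrays, where differences can be understated. Of the 12 rises, 7 were called under every alternative setting: Gnat1, Pde6a, Cnga1, Gnb5, Slc24a1, Guca1a and Guca1b. The count was 7 without the 2 lens-rich arrays.

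The start regions of these genes are shown because a factor common to photoreceptors, the homeobox protein CRX, is known to bind the letters TAATCC. RefSeq windows of 300 bases (250 bases before to 50 after a gene's start, build GRCm38.p6) were searched on both strands. Windows were at hand for 8 of the 12 rod genes that rose, and 6 of these 8 held TAATCC, beside 2320 of 32851 windows of all genes (7.062%). Among the outer segment genes described next, 4 of 11 windows held it, and among the cone genes that rose 1 of 3. The windows of Drd4, Opn1mw, Slc24a1, Prph2 and Arr3, which rose, did not hold these letters. A match of letters is not a binding site, and windows with a match are shown so that it can be seen. Guca1a (chr17:47400557-47400856, minus strand) and Cnga1 (chr5:72642703-72643002, minus strand) are given 5′ to 3′ with the match in capitals. Counted from the gene's start, it begins at base -57 in Guca1a, where it reads GGATTA because it lies on the other strand, and at base -228 in Cnga1.
Guca1a: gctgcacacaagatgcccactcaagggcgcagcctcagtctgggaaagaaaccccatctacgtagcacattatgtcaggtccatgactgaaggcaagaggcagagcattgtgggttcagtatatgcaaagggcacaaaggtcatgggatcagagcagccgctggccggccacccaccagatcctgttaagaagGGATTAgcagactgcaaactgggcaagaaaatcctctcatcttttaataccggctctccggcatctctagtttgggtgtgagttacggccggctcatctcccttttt
Cnga1: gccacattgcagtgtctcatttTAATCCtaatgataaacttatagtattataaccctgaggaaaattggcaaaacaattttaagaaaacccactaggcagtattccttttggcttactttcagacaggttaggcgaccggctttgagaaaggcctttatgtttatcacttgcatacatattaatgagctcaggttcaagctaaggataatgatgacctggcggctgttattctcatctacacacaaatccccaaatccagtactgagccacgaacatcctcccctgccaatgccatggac

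Structural genes of the outer segment and enzymes of the visual cycle also rose, 9 of 19 tested, with 1 lower and a median difference of 0.32. Prph2, the tetraspanin peripherin that bends the disc rims, had 12.60, 12.54 and 13.09 at day 12, against 11.12, 11.45 and 11.38 at day 7 (1.43 ± 0.27, adjusted p = 0.00138). Its partner Rom1 rose by 0.49 ± 0.10. Abca4, the transporter that clears retinal from the discs, rose by 0.95 ± 0.12, and Rdh12, which reduces retinal, by 1.04 ± 0.14. Aipl1, a chaperone needed for the phosphodiesterase, had 14.52, 14.65 and 14.45 at day 12, against 13.07, 13.64 and 13.09 at day 7 (1.27 ± 0.15, adjusted p = 1.48e-05). Impg1, a proteoglycan of the matrix between photoreceptors, rose by 1.18 ± 0.24. The member that fell was Cln3, a lysosomal membrane protein, by 0.53 ± 0.12. Prph2, Abca4, Impg1, Aipl1 and Rdh12 were called under every alternative setting, and with only the 6 arrays in the fit the count that rose was 5.

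In cones, the photoreceptors of daylight, 1 of the 2 opsins passed. Opn1mw, the opsin of middle wavelengths, had 12.27, 12.65 and 12.68 at day 12, against 8.65, 9.40 and 8.93 at day 7, an 11.6-fold rise (3.54 ± 0.28, adjusted p = 9.98e-08). Opn1sw, the short-wavelength opsin, had 13.47, 13.40 and 13.67 at day 12, against 13.30, 13.31 and 13.38 at day 7 (0.19 ± 0.12), and did not pass (adjusted p = 0.353). The difference between the opsins was not tested. Of 11 cone genes tested, 4 rose and 1 fell. Besides Opn1mw these were Pde6c, the cone phosphodiesterase (2.04 ± 0.44), Arr3, cone arrestin (1.56 ± 0.29), and Gnat2, cone transducin (0.75 ± 0.10), and all 4 were called under every alternative setting. Cngb3, a subunit of the cone channel, fell by 0.38 ± 0.12, a call that was lost without any 1 of the arrays other than day 12 replicate 3.

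Transcription factors that set photoreceptor fate fell or did not pass, with 1 exception. Crx differed by -0.10 ± 0.13 and Nrl, which commits a precursor to the rod fate, by 0.03 ± 0.08, and neither passed. Prdm1, which acts early in photoreceptor precursors, had 11.35, 11.35 and 11.19 at day 12, against 12.87, 12.44 and 12.60 at day 7, and fell by 1.34 ± 0.14 (adjusted p = 2.64e-06). Otx2, upstream of Crx, had 12.39, 11.83 and 12.14 at day 12, against 13.31, 12.72 and 13.51 at day 7 (-1.06 ± 0.19, adjusted p = 0.000617). Neurod1 fell by 0.46 ± 0.13. Esrrb, a nuclear receptor needed for rod survival, was the exception. It had 12.35, 12.66 and 12.57 at day 12, against 10.08, 10.42 and 10.03 at day 7, a 5.11-fold rise (2.35 ± 0.16, adjusted p = 2.46e-08), and its further probe set also rose. Of 12 factors tested, 1 rose and 3 fell.

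**Figure D3:**
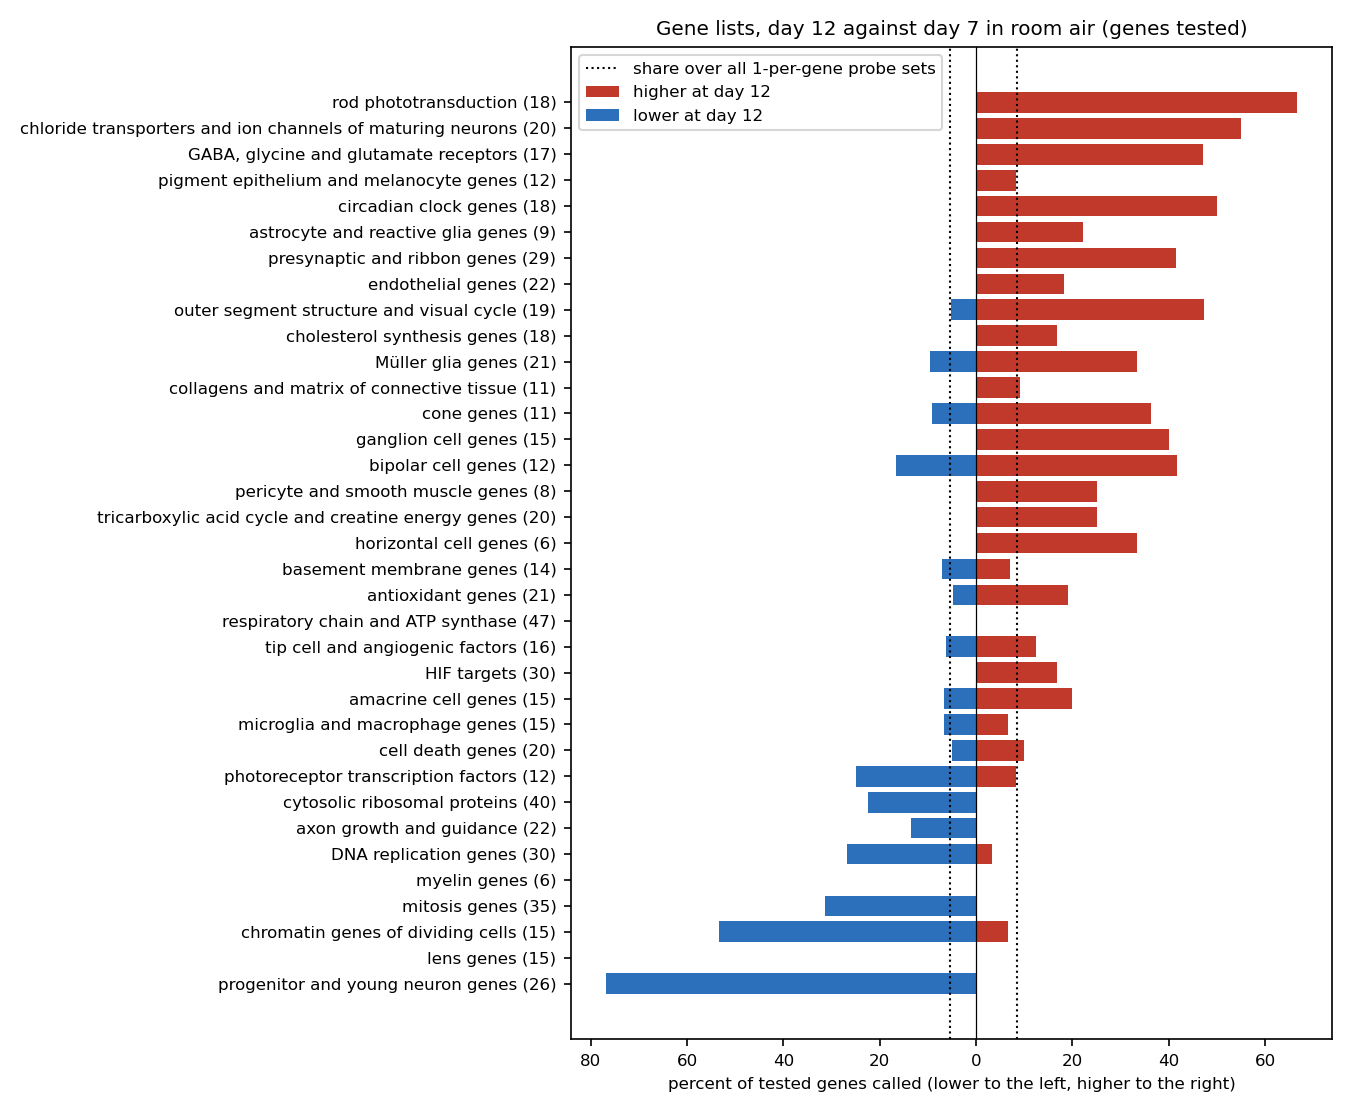
Percent of each list's tested genes that were called higher (red, right) or lower (blue, left) at day 12, for lists of at least 5 tested genes (number in brackets), ordered by median difference. Dotted lines mark the shares over all genes, 8.57% higher and 5.5% lower; the rod list reached 66.7% higher and the progenitor list 76.9% lower.

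Among the inner retinal neurons, bipolar cells, which carry photoreceptor signals inward, had 5 of 12 tested genes higher and 2 lower. Gng13, a G protein gamma subunit of ON bipolar cells, had 11.87, 12.10 and 11.74 at day 12, against 9.26, 9.89 and 9.57 at day 7, a 5.02-fold rise (2.33 ± 0.16, adjusted p = 5.38e-08). Pcp2, a modulator of the same G protein pathway, rose by 1.36 ± 0.19 by its brightest probe set, and all 3 of its probe sets passed. Cabp5, a calcium-binding protein, rose by 1.28 ± 0.19, Car8, of the carbonic anhydrase family, by 1.59 ± 0.21, and Rgs11, a regulator of G protein signalling, by 0.83 ± 0.22. The 2 that fell are transcription factors of bipolar development, Vsx1 (-0.58 ± 0.12) and Neurod4 (-0.56 ± 0.14). Trpm1, the cation channel of ON bipolar cells, differed by -0.15 ± 0.37 and did not pass. Neurod4 lost its call without day 12 replicate 1 and without day 7 replicate 1.

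Amacrine and horizontal cells are the interneurons. In the amacrine list 3 of 15 tested genes rose: Calb2, the calcium buffer calretinin (0.77 ± 0.14), Slc18a3, the vesicular acetylcholine transporter (0.42 ± 0.10), and Gad1, an enzyme of GABA synthesis (0.41 ± 0.11). Npy, neuropeptide Y, fell by 0.69 ± 0.22, a call lost without any 1 of the arrays other than day 12 replicate 1. Of these only Calb2 was called under every alternative setting. Pax6, a factor of amacrine, horizontal and ganglion cells, had 12.86, 12.75 and 12.80 at day 12, against 13.17, 12.56 and 12.72 at day 7, and did not pass (-0.01 ± 0.17, adjusted p = 0.972). In horizontal cells 2 of 6 tested genes rose, Septin4, a cytoskeletal protein (0.54 ± 0.12), and Calb1. Calb1, the calcium buffer calbindin, had 12.48, 12.44 and 12.29 at day 12, against 10.96, 11.22 and 11.02 at day 7 (1.33 ± 0.17, adjusted p = 3.27e-05). The horizontal cell factors Lhx1 and Onecut1 differed by -0.08 ± 0.21 and 0.14 ± 0.22, and neither passed.

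Ganglion cells, whose axons form the optic nerve, had 6 of 15 tested genes higher and 0 lower, with a median difference of 0.20. Chrna6, a nicotinic acetylcholine receptor subunit, had 11.15, 11.38 and 11.45 at day 12, against 10.21, 10.61 and 10.26 at day 7 (0.97 ± 0.14, adjusted p = 0.000133). Thy1, a surface protein of ganglion cells, rose by 0.85 ± 0.14. The neurofilament genes Nefh and Nefl, which fill mature axons, rose by 0.71 ± 0.20 and 0.39 ± 0.11, Sncg, gamma synuclein, by 0.53 ± 0.14, and Slc17a6, a vesicular glutamate transporter, by 0.47 ± 0.14. Only Thy1 and Chrna6 of these 6 were called under every alternative setting. The count was 3 without day 12 replicate 2, 2 without day 7 replicate 1, 2 without day 7 replicate 3 and 2 without the lens-rich arrays. With only the 6 arrays in the fit it was 3.

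Genes of transmission between neurons rose where they were called. Of 29 presynaptic and ribbon genes 12 rose and 0 fell, with a median of 0.33. Cplx4, a complexin of photoreceptor ribbon synapses, had 13.11, 13.19 and 13.37 at day 12, against 11.91, 12.27 and 11.89 at day 7 (1.20 ± 0.15, adjusted p = 2.49e-05). Rims2, a scaffold of the release site, rose by 1.03 ± 0.12, and Vamp1, a vesicle fusion protein, by 1.52 ± 0.31. Cacna1f, the calcium channel that triggers release at photoreceptor terminals, had 11.41, 11.55 and 11.37 at day 12, against 10.32, 10.80 and 10.64 at day 7 (0.86 ± 0.13, adjusted p = 0.000162). Cabp4, the calcium sensor of that channel, was among the 20 largest rises, with 11.67, 12.09 and 11.75 at day 12, against 9.46, 9.64 and 9.43 at day 7 (5.01-fold, adjusted p = 4.81e-07). Bsn, the ribbon protein bassoon, differed by -0.26 ± 0.26 and did not pass. Rims2, Vamp1, Cplx4 and Cacna1f were called under every alternative setting. The count of 12 was 6 without day 7 replicate 1, 7 without day 7 replicate 3, 7 without the 2 lens-rich arrays and 7 with the pigment score. With only the 6 arrays in the fit it was 6.

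Receptors for the transmitters GABA, glycine and glutamate rose in 8 of 17 tested genes, with a median of 0.61, and 16 of the 17 had positive differences. The subunits of the GABA(C) receptor, known from bipolar cell terminals, were both among them. Gabrr2 had 10.38, 10.26 and 10.34 at day 12, against 7.68, 8.17 and 8.00 at day 7, a 5.18-fold rise (2.37 ± 0.24, adjusted p = 2.38e-06). Gabrr1 rose by 0.66 ± 0.13. Subunits of the GABA(A) receptor, Gabrb1, Gabrd and Gabra2, rose by 0.65 to 0.69, the AMPA receptor subunits Gria3 and Gria1 by 0.72 ± 0.19 and 0.61 ± 0.16, and Glrb, of the glycine receptor, by 0.85 ± 0.23. The count of 8 was 5 without day 12 replicate 1 and 5 without day 7 replicate 3. It was 4 with only the room air arrays of day 12 and day 7 in the fit.

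In the list of chloride transporters and ion channels 11 of 20 tested genes were higher and 0 lower, with a median of 0.65. Slc12a5, the chloride exporter KCC2 that makes GABA inhibitory, had 14.34, 14.38 and 14.33 at day 12, against 13.58, 13.60 and 13.52 at day 7 (0.78 ± 0.12, adjusted p = 0.000137). Its counterpart, the chloride importer Slc12a2, differed by 0.20 ± 0.12 and did not pass. Kcnj14, an inward rectifier potassium channel, had 10.94, 12.01 and 11.80 at day 12, against 7.27, 8.12 and 7.43 at day 7, a 15.8-fold rise (3.98 ± 0.30, adjusted p = 9.18e-08). Scn1a, a sodium channel of action potentials, had 9.89, 10.17 and 9.93 at day 12, against 8.17, 8.27 and 7.79 at day 7 (1.92 ± 0.20, adjusted p = 2.64e-06). Kcna1, a potassium channel of axons, rose by 1.70 ± 0.48, with day 7 replicate 3 at the floor, so that its fold is a lower bound. The count of 11 was 7 without day 12 replicate 2 and 7 without day 7 replicate 3. It was also 7 with only the room air arrays of day 12 and day 7 in the fit. A further potassium channel outside the list, Kcnk3, stood among the 20 largest rises (2.20 ± 0.40, 1 day 7 array at the floor).

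In the Müller glia list 7 of 21 tested genes rose, 2 fell and 12 did not pass, with a median of 0.29. Aqp4, the water channel of glial endfeet, had 10.68, 11.27 and 10.89 at day 12, against 8.01, 8.73 and 8.25 at day 7, a 6.13-fold rise (2.62 ± 0.20, adjusted p = 9.18e-08). Glul, glutamine synthetase, which detoxifies glutamate in these cells, had 13.70, 13.80 and 13.86 at day 12, against 12.45, 12.39 and 12.32 at day 7 (1.40 ± 0.16, adjusted p = 1.16e-05). Clu, the secreted chaperone clusterin, rose by 1.89 ± 0.19 with all 4 of its probe sets called, and Abca8a, a lipid transporter, by 1.78 ± 0.24. Apoe, a lipid carrier, and Car14, a carbonic anhydrase, rose by 0.68 ± 0.19 and 0.79 ± 0.17. Rlbp1, which carries retinal in these cells, differed by 0.31 ± 0.15 and did not pass. Crym, a thyroid hormone-binding crystallin, and Dbi, a lipid-binding protein, fell by 0.55 ± 0.11 and 0.54 ± 0.10. Under every alternative setting 4 of the rises were called (Glul, Aqp4, Clu and Abca8a) and 0 of the falls. With only the 6 arrays in the fit 4 rose and 0 fell.

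Further large rises named by size alone have other roles. Vtn, the adhesive blood and matrix protein vitronectin, had 13.50, 13.62 and 13.83 at day 12, against 10.89, 11.34 and 10.88 at day 7 (6.12-fold, adjusted p = 7.6e-08), and its further probe set also rose. Il33, a nuclear cytokine found in Müller glia, rose 4.84-fold, Aqp1, a water channel, 4.8-fold, and Dio2, the enzyme that activates thyroid hormone, 5.05-fold. Of the Dio2 probe sets, 2 others did not pass. Pdzph1 rose 8.89-fold with 1 day 7 array at the floor, Cdr2, a neuronal protein known as a target of autoantibodies, 5.26-fold, and Pfkfb2, a regulator of glycolysis, 4.65-fold. The 2 other probe sets of Pfkfb2 differed by 1.01 and 0.70 and did not pass. Cav2, the membrane protein caveolin 2, rose 5.65-fold, while its further probe set differed by -0.53 ± 0.24 and did not pass.

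Genes of the circadian clock, the feedback loop by which cells keep time, were higher at day 12. In 9 of 18 tested genes the rise passed, 0 fell, and the median was 0.56. The steepest of all rises in the data stands in this list: Drd4, the dopamine receptor of photoreceptors, whose transcript is known to cycle over the day in rodent retina. It had 13.85, 13.67 and 14.09 at day 12, against 8.21, 9.09 and 7.47 at day 7, a 48.9-fold difference (5.61 ± 0.44, adjusted p = 9.98e-08). The size depended on the probe set, since the other one of Drd4 rose 8.82-fold (3.14 ± 0.30). By the first, means were 9.64 at day 8 and 13.21 at day 10. Dbp, a clock output factor, had 12.22, 12.09 and 12.02 at day 12, against 10.30, 10.64 and 9.99 at day 7 (1.80 ± 0.23, adjusted p = 2.54e-05), and Hlf, of the same family, rose by 1.15 ± 0.13. Cry2, Per3 and Nr1d1, repressors in the loop, rose by 0.97 ± 0.19, 0.70 ± 0.17 and 0.59 ± 0.18, and Clock, an activator, by 0.60 ± 0.13. Arntl, the partner of Clock, differed by -0.13 ± 0.10 and Per2 by 0.31 ± 0.25, and neither passed. The time of day of the samples is not given, so age and time of day cannot be told apart for these genes. Cry2, Clock, Dbp, Hlf and Drd4 were called under every alternative setting.

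The genes of progenitors and newborn neurons fell together. Of 26 tested, 20 fell and 0 rose, all 26 had negative differences, and the median was -0.88. Neurog2, a proneural factor of progenitors about to leave the cycle, had 7.82, 7.70 and 8.43 at day 12, against 10.20, 9.45 and 9.80 at day 7, and was 3.57-fold lower (-1.84 ± 0.24, adjusted p = 3.99e-05). Sox11, of newborn neurons, had 7.32, 7.09 and 7.09 at day 12, with 2 arrays at the floor, against 9.13, 8.94 and 8.89 at day 7 (-1.82 ± 0.29, adjusted p = 0.000224). The related Sox4 fell by 0.89 ± 0.11 by its brightest probe set and by 1.74 ± 0.19 by the one with the lowest p.

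Members of the Notch pathway, which holds cells in the progenitor state, were among them. Hes5, a Notch target, had 9.17, 9.05 and 9.43 at day 12, against 10.53, 10.67 and 10.51 at day 7 (-1.36 ± 0.20, adjusted p = 0.000137). Hes6, Dll3 and Notch1 fell by 1.23 ± 0.17, 1.22 ± 0.19 and 1.03 ± 0.20. Ccnd1, the cyclin D of retinal progenitors, had 11.70, 11.46 and 11.32 at day 12, against 12.81, 12.50 and 12.88 at day 7 (-1.24 ± 0.15, adjusted p = 2.29e-05). Cytoskeletal genes of young neurons fell too: Tubb2b, a tubulin, by 1.33 ± 0.23, Dcx, a microtubule-binding protein of migrating neurons, by 1.21 ± 0.17, and Stmn1, which destabilises microtubules, by 0.55 ± 0.10. Of the 20 that fell, 16 were called under every alternative setting, and 19 fell without the 2 lens-rich arrays.

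Among the 20 largest falls chosen by size were Enc1, an actin-binding protein of young neurons (-1.95 ± 0.23), and Fabp7, a fatty acid-binding protein of progenitors and immature glia, which had 11.67, 11.07 and 11.38 at day 12, against 13.54, 12.85 and 13.32 at day 7 (-1.86 ± 0.19, adjusted p = 2.64e-06). Slc27a2, which activates very long fatty acids, and Nts, the neuropeptide neurotensin, lay at the floor in all 3 day 12 arrays. Their folds are lower bounds, at least 3.49-fold and at least 3.4-fold lower. Factors of progenitors and precursors stood in the same group, namely Myb (-1.59 ± 0.18), Pax7 (-1.62 ± 0.22) and Foxn4, which directs amacrine and horizontal fates (-1.52 ± 0.25, 1 day 12 array at the floor). Igf2bp3, a fetal RNA-binding protein, fell by 1.59 ± 0.18, Pbk, a mitotic kinase, by 1.65 ± 0.19, Tead2, a factor of the Hippo pathway, by 1.44 ± 0.23, and Inhbb, a subunit of activin B, by 1.39 ± 0.20. The other probe set of Inhbb differed by -0.76 ± 0.33 and did not pass. Ppp1r14b, a phosphatase inhibitor, and Ier5, an immediate early gene, fell by 1.48 ± 0.15 and 1.45 ± 0.29. The 2 other probe sets of Ier5 passed with smaller differences, -0.69 ± 0.17 for its brightest and -0.63 ± 0.18. Grhl2, a factor of epithelia, fell by 1.68 ± 0.41. Insm2 and Siglec1, each with 2 day 12 arrays at the floor, were the 2 whose calls were lost in 6 alternatives.

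Genes of cell division fell as well. In the DNA replication list 8 of 30 tested genes fell and 1 rose, with a median of -0.26. Mcm7, of the ring that unwinds DNA at origins, had 11.20, 10.80 and 10.97 at day 12, against 12.29, 11.78 and 12.21 at day 7 (-1.10 ± 0.14, adjusted p = 3.6e-05), and Mcm5 of the same ring fell by 0.99 ± 0.16. Rrm2, a subunit of the enzyme that makes the DNA building blocks, fell by 0.98 ± 0.21. Pcna, the clamp of the polymerase, had 13.25, 13.49 and 13.42 at day 12, against 13.38, 13.37 and 13.23 at day 7, and did not pass (0.06 ± 0.12). Rpa1, which binds single-stranded DNA, was the member that rose (0.67 ± 0.13). Mcm5, Mcm7 and Rrm2 were called under every alternative setting. The count that fell was 5 without day 12 replicate 2, 5 without day 12 replicate 3, 5 without day 7 replicate 1 and 4 without the lens-rich arrays. It was 5 with only the room air arrays of day 12 and day 7 in the fit.

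In the mitosis list 11 of 35 tested genes fell and 0 rose, with a median of -0.45. Cdk1, the kinase that drives cells into mitosis, had 8.22, 8.17 and 7.91 at day 12, against 9.68, 9.34 and 9.45 at day 7 (-1.39 ± 0.27, adjusted p = 0.0019). Its cyclin Ccnb2 fell by 1.21 ± 0.16 with 2 day 12 arrays at the floor. Ube2c, which marks mitotic proteins for breakdown, fell by 1.37 ± 0.19 with 1 day 12 array at the floor, and Top2a, which untangles chromosomes, by 1.06 ± 0.23. Of the 11, 9 were called under every alternative setting in which they were tested. With a stricter filter, which left 12 of the 35 genes to test, 3 fell.

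The start regions of these genes are shown for 2 motifs known from cell cycle genes, the E2F core (TTCCCGC or TTGGCGC) and the cell cycle homology region TTTGAA, both searched on both strands in the same RefSeq windows. Of 8 windows of replication genes that fell, 6 held an E2F core, beside 2236 of 32851 windows of all genes (6.806%). Of 11 windows of mitosis genes that fell, 9 held TTTGAA, beside 5878 of 32851 (17.893%), and 2 held an E2F core. Mcm5 (chr8:75109259-75109558, plus strand) held 2 E2F cores, at bases -164 and -149 from its start. Cdk1 (chr10:69352863-69353162, minus strand) held 2 matches to TTTGAA, at bases -71 and -15, and Ube2c (chr2:164769679-164769978, plus strand) held 1 at base -29. Capitals mark the E2F core alone in Mcm5 and TTTGAA alone in Cdk1 and Ube2c; Cdk1 also holds TTGGCGC, left in lower case. Matches are letters and not shown to be sites.
Mcm5: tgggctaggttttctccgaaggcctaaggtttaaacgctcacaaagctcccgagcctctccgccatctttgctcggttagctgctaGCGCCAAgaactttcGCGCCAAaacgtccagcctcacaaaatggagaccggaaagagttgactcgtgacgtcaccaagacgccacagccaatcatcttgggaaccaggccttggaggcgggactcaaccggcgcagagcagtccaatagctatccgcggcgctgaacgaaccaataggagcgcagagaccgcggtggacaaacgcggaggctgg
Cdk1: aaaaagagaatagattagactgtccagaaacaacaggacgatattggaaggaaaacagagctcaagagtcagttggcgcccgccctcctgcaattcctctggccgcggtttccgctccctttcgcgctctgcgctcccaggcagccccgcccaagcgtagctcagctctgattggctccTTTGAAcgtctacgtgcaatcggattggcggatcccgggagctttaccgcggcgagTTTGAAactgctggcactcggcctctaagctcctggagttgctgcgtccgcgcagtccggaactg
Ube2c: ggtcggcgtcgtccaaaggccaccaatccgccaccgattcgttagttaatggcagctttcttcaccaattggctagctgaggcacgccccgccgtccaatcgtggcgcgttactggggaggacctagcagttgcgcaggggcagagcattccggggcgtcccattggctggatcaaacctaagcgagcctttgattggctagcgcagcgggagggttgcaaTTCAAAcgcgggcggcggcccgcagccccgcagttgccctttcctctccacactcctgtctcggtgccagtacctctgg

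Chromatin genes of dividing cells had 8 of 15 tested members lower and 1 higher, with a median of -0.54. Ezh2, the methyltransferase of histone H3 in the Polycomb complex, had 10.62, 9.79 and 9.83 at day 12, against 11.44, 11.28 and 11.36 at day 7 (-1.28 ± 0.18, adjusted p = 9.57e-05). Dnmt1, which copies DNA methylation at replication, fell by 0.53 ± 0.12, while Dnmt3a, which sets new methylation, rose by 0.37 ± 0.09, a call lost without day 12 replicate 2 and without day 7 replicate 3. Hmga2, a chromatin protein of immature cells, fell by 0.98 ± 0.19, and Nasp, a histone chaperone, by 0.82 ± 0.13. Ezh2, Hmga2 and Nasp were called under every alternative setting. In this list 4 fell without the 2 lens-rich arrays and 3 with only the 6 arrays in the fit. In the ribosomal protein list 9 of 40 tested genes fell by 0.24 to 0.70, 38 had negative differences, and the median was -0.18. None of these 9 was called under every alternative setting. The count was 5 with the deposited scaling, 3 to 5 without any 1 of the 6 arrays, 3 without the 2 lens-rich arrays, 4 with the pigment score and 0 with only the 6 arrays in the fit. In the axon guidance list 3 of 22 fell, each under every alternative setting: Sema6a (-0.82 ± 0.17), Dpysl5 (-0.68 ± 0.12) and Nrp1 (-0.59 ± 0.13).

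**Figure D4:**
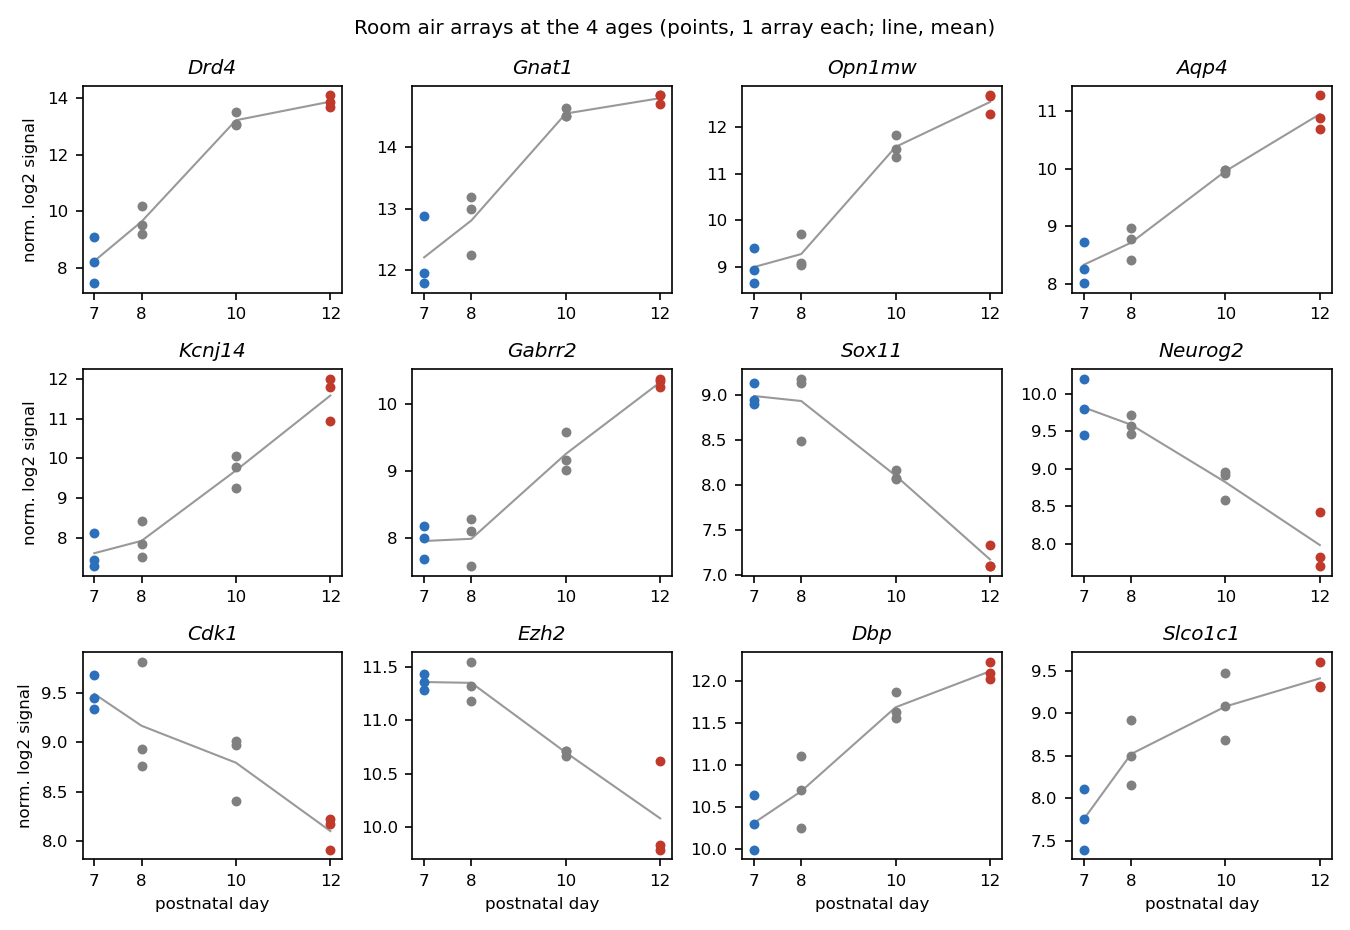
Normalised log2 signal of 12 genes in the room air arrays at postnatal days 7 (blue), 8 and 10 (grey) and 12 (red), each by its brightest probe set (1 point per array; the line joins the means). For Drd4 the mean was 9.64 at day 8 and 13.21 at day 10, and for Kcnj14 it was 7.92 and 9.69.

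The room air arrays of days 8 and 10 fall between these ages and are given as levels without a test. Among the 1133 probe sets that rose, the median difference from day 7 was 0.18 at day 8, 0.52 at day 10 and 0.70 at day 12. Among the 825 that fell it was -0.12, -0.36 and -0.60 at the same days. All these differences share the day 7 arrays, which together with the day 12 arrays chose the probe sets. The day 12 medians are thus of the difference used for the choice, and a further change after day 10 cannot be read from them. Gnat1 had means of 12.81 at day 8 and 14.54 at day 10, so most of its rise lay between these days. In the progenitor list the median was -0.09 at day 8, -0.51 at day 10 and -0.88 at day 12, and in the rod list 0.11, 0.52 and 0.68. Medians of the cone and ganglion cell lists were higher at day 10 (0.32 and 0.28) than at day 12 (0.21 and 0.20).

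Vessel genes were measured because the retinal vasculature grows at these ages. In the endothelial list 4 of 22 tested genes rose and 0 fell, 18 had positive differences, and the median was 0.33. Slco1c1, a thyroid hormone transporter of the blood-retina and blood-brain barriers, had 9.61, 9.31 and 9.32 at day 12, against 7.75, 8.11 and 7.39 at day 7 (1.66 ± 0.26, adjusted p = 0.000257). Tm4sf1, Eng, a co-receptor for TGF-beta, and Esam, an adhesion molecule, rose by 0.90 ± 0.24, 0.80 ± 0.22 and 0.68 ± 0.21. Of the 4 only Slco1c1 was called under every alternative setting. The count was 1 without day 12 replicate 1, 1 without day 7 replicate 3, 1 without the lens-rich arrays and 1 with the pigment score. The endothelial anchors Pecam1 (0.67 ± 0.26), Cldn5 (0.51 ± 0.19) and Cdh5 (0.16 ± 0.18) did not pass. Pdgfrb, the growth factor receptor of pericytes, had 8.91, 8.81 and 8.67 at day 12, against 7.09, 7.98 and 7.09 at day 7, with 2 day 7 arrays at the floor (1.41 ± 0.27, adjusted p = 0.00143), and Rgs5, a further pericyte gene, rose by 0.53 ± 0.15. They were the 2 of 8 pericyte genes that rose, and Rgs5 lost its call without day 12 replicates 2 or 3 and without day 7 replicate 3.

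Of the angiogenic factors, 2 of 16 tested rose (12.5%) and 1 fell (6.2%), beside 8.57% and 5.5% over all tested genes. Vegfa, the main vessel growth factor, had 11.04, 11.08 and 11.19 at day 12, against 11.30, 11.26 and 10.93 at day 7, and did not pass (-0.06 ± 0.13, adjusted p = 0.823). Fgf1, a fibroblast growth factor, rose 2.82-fold and Serpinf1, the anti-angiogenic factor PEDF, by 0.61 ± 0.16. Cxcr4, a chemokine receptor of tip cells, fell by 0.72 ± 0.17. Serpinf1 lost its call without day 12 replicate 2 and without day 7 replicates 1 or 3, and Cxcr4 without day 7 replicate 1. Angpt2, which loosens vessels, differed by -0.44 ± 0.35 and did not pass. In the basement membrane list 7.1% rose and 7.1% fell, near the same shares over all genes. Of its 14 genes 1 rose, Lamb1, a laminin chain (0.65 ± 0.21), and 1 fell, Agrn, agrin (-0.76 ± 0.22). Lamb1 lost its call without day 12 replicates 1 or 2 and without day 7 replicates 1 or 3, and Agrn without day 12 replicate 3 and without day 7 replicates 1 or 3.

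Over all tested genes 8.57% rose. In energy metabolism the shares that rose were 16.7%, 0% and 25%, in the order of the lists given here. Of 30 targets of HIF, the factor of the response to low oxygen, 5 rose and 0 fell, with a median of 0.01 and 15 of 30 positive. They were Aldoc, an aldolase (0.90 ± 0.12), the hexokinases Hk2 (0.72 ± 0.22) and Hk1 (0.58 ± 0.11), Pfkp, a phosphofructokinase (0.60 ± 0.14), and Slc2a3, a glucose transporter (0.52 ± 0.13). Pdk1 and Bnip3, further targets, differed by -0.22 ± 0.14 and 0.30 ± 0.12 and did not pass. Without the 2 lens-rich arrays 3 of the 30 rose and 1 fell. Of 47 genes of the respiratory chain and ATP synthase 0 passed in the limma test (6 at an unadjusted p under 0.05), with a median of 0.08. Of 20 genes of the tricarboxylic acid cycle and of creatine energy 5 rose, among them Ckmt1, a mitochondrial creatine kinase (0.78 ± 0.13), and Got1, an aminotransferase (0.54 ± 0.13). That count was 2 without day 12 replicate 1, 2 without day 12 replicate 2, 3 without day 12 replicate 3, 3 without day 7 replicate 2 and 2 without day 7 replicate 3. It was 3 without the lens-rich arrays, 2 with the pigment score and 1 with only the 6 arrays in the fit.

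Cholesterol synthesis genes had 3 of 18 higher, Hmgcs1, Msmo1 and Sc5d, at 0.48 to 0.65, with 16 of 18 positive and a median of 0.30. That count was 1 without day 12 replicate 2, 0 without day 7 replicate 3, 1 with the pigment score and 0 with only the 6 arrays in the fit. In the antioxidant list 4 of 21 rose (19%) and 1 fell (4.8%), beside 8.57% and 5.5% over all genes. Gsta4, a glutathione transferase, rose by 0.91 ± 0.16 and Srxn1, sulfiredoxin, by 0.83 ± 0.17, both under every alternative setting. Sod1 and Gpx4 rose by 0.64 ± 0.17 and 0.49 ± 0.13, and Txnrd1 fell by 0.49 ± 0.15, a call lost without day 12 replicates 1 or 2 and without day 7 replicates 1 or 2. The count that rose was 2 without day 7 replicate 1, 2 without the lens-rich arrays and 2 with the pigment score. Among 20 cell death genes 2 rose (10%) and 1 fell (5%), near the 8.57% and 5.5% over all genes, with a median of -0.10. Casp2, an initiator caspase, fell by 0.66 ± 0.10, and the survival genes Bcl2l2 and Xiap rose by 0.65 ± 0.19 and 0.41 ± 0.11. Both survival genes lost their calls without day 12 replicate 2 and without day 7 replicate 3.

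In the lists of other glia, of immune cells and of myelin, 22.2%, 6.7% and 0% of tested genes rose, beside 8.57% over all genes. In the same order 0%, 6.7% and 0% fell, beside 5.5%. Gfap, the astrocyte filament, had 9.14, 9.29 and 9.55 at day 12, against 9.43, 9.40 and 9.74 at day 7, and did not pass (-0.20 ± 0.17). Of 9 astrocyte and reactive glia genes, Fos, an immediate early gene, rose by 1.36 ± 0.20 and Osmr, a cytokine receptor, by 1.15 ± 0.21, both under every alternative setting in which they were tested. Of 15 microglia and macrophage genes 1 rose, P2ry12, a receptor of resting microglia (0.62 ± 0.17), and 1 fell, Siglec1. P2ry12 lost its call without day 12 replicates 2 or 3 and without day 7 replicates 2 or 3. Csf1r and Cx3cr1 differed by 0.26 ± 0.16 and 0.46 ± 0.23 and did not pass. Of 6 myelin genes 0 passed in the limma test (1 at an unadjusted p under 0.05). Among the lists of neighbouring tissues, 0 of 2 red blood cell genes and 0 of 3 cornea genes passed in the limma test (0 in each at an unadjusted p under 0.05). Of 4 muscle genes Acta1, skeletal actin, rose by 0.94 ± 0.27, and of 11 collagen and matrix genes Col9a1 rose by 0.44 ± 0.12. Acta1 lost its call without day 12 replicates 1 or 3 and without day 7 replicates 1 or 3, and Col9a1 without day 12 replicate 2 and without day 7 replicate 1.

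The same interval was set beside hyperoxia, in which day 12 arrays follow 120 hours and day 7 arrays 12 hours of exposure, so that age and exposure change together there. In hyperoxia 1993 of the 15838 probe sets were called between these ages. Of the room air calls, 1157 were called in the same direction in hyperoxia, 59.1% of the room air and 58.1% of the hyperoxia calls, and 0 in the opposite direction. The sign was the same for 1894 of the 1958 (96.7%). These were picked by their difference in room air, and the share over all probe sets was not measured. The comparisons share no array, and over the 15838 probe sets their differences correlated at r = 0.673, across probe sets that are not independent. Guca1b differed by 3.71 in hyperoxia and by 4.08 in room air, and Kcnj14 by 2.51 in hyperoxia and by 3.98 in room air. In hyperoxia Gnat1 differed by 2.65 and Drd4 by 5.11, against 2.59 and 5.61 in room air, and the rod list had a median of 0.71 in hyperoxia and 0.68 in room air. The progenitor list had -0.82 in hyperoxia and -0.88 in room air.

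No difference between the conditions in the change with age passed in the limma test of that difference. It called 0 of 15838 probe sets (0%), with 983 at an unadjusted p under 0.05 and a lowest adjusted p of 0.41. The median standard error of this difference was 0.24, and differences several times their standard error, such as those below, did not pass. The smallest p belonged to Vegfa, which changed by 0.86 ± 0.13 in hyperoxia and by -0.06 ± 0.13 in room air (difference 0.92 ± 0.18, adjusted p = 0.41). Slc16a3, a lactate exporter, and Ak4, an adenylate kinase of mitochondria, followed with differences of 1.26 ± 0.26 and 0.98 ± 0.21, and Polr3k and Sema4b with -1.25 ± 0.25 and -1.05 ± 0.22. The HIF list had a median of 0.36 in hyperoxia and 0.01 in room air, and the endothelial list 0.03 in hyperoxia and 0.33 in room air, which are descriptions without a test.

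**Figure D5:**
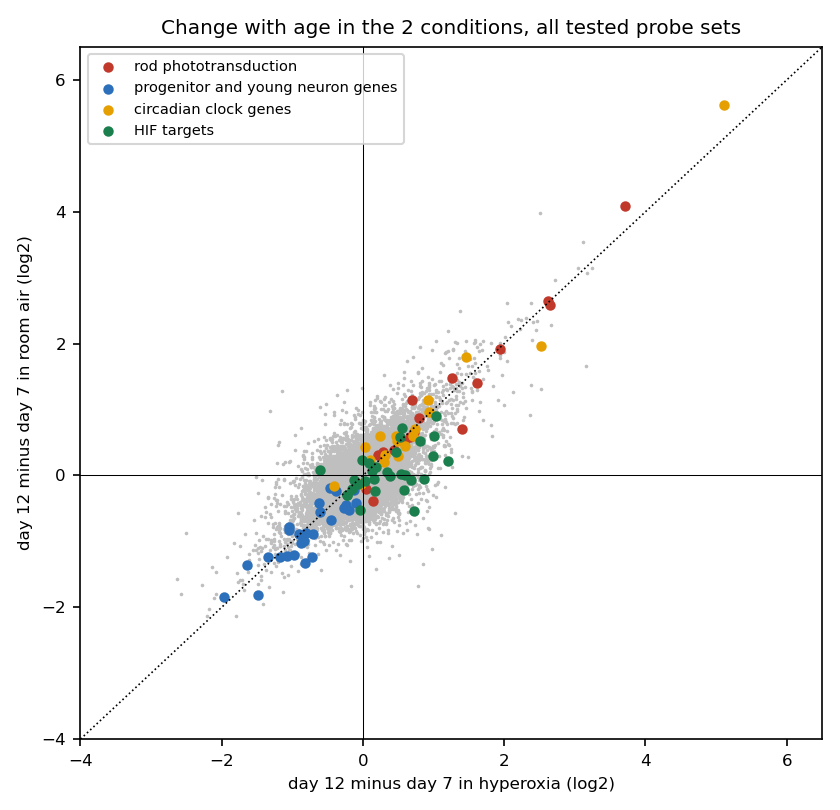
Difference between day 12 and day 7 of all 15838 tested probe sets in room air (vertical axis, log2) and in hyperoxia (horizontal axis, log2), with the members of 4 lists in colour and the line of equal change dotted. The rod list (medians 0.68 in room air, 0.71 in hyperoxia) and the progenitor list (medians -0.88 in room air, -0.82 in hyperoxia) fall along the line.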

How the data were processed

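Total retinal RNA was measured on oligonucleotide arrays, 1 array a sample. The authors deposited linear intensities of 22690 probe sets, 64 of them controls, with 1 value on each array. The software behind them is not given in the sources used here. With 2% of values trimmed at each end, the mean of an array was 1500.35 to 1500.4, which puts the deposited values on a common scale, while array medians spanned 0.253 in log2. Scanner files were not analysed here.

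Intensities were taken to log2 and quantile normalised. Values under the 20th percentile (log2 7.09, signal 136.2) were raised to it, which understates differences near it and touched 0.34% of tested values. Controls and probe sets with a mean under the 30th percentile were removed, which left 15838, of which 14631 have 1 symbol (9266 genes). limma 3.58.1 in R 4.3.3 fitted 8 group means over all 24 arrays (16 residual and 3.54 prior degrees of freedom). The contrasts were day 12 minus day 7 in room air and its difference from hyperoxia, with Benjamini-Hochberg adjusted p under 0.05 as the call.

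Probe sets were named by the platform annotation (20380 with 1 symbol, 691 with several, 1555 with none), of which 20351 were found by gene ID in the RefSeq table and 0 changed symbol. Of 939 entries in 38 gene lists, 791 were on the array, and each gene counts by its brightest tested probe set. Named genes were the 20 largest rises and 20 largest falls among calls without overlap, each by whichever of its probe sets had the lowest p, and each list's anchor genes with its called members of lowest p. A few further members were named from the lists. For the difference between conditions, where nothing was called, the 5 probe sets with the lowest p were named, chosen after their values were seen. The members and lists were chosen with earlier results of these data known.

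On simulated data with 200 of 15838 probe sets changed, the room air contrast recovered 34% of the changes at 1.5-fold and 80% at 2-fold, with 98% at 3-fold, 96% at 4-fold and 6 false calls. The simulated noise was normal and independent between probe sets, without other tissue, and no floor was applied after the changes were added. Fewer probe sets were changed than were called in the real arrays, so these rates need not hold there. Alternatives were another scaling, floor, filter, prior or set of arrays in the fit, the replicate number as a block, 1 probe set a gene, lens or pigment scores as covariates, and leaving out each room air array. The fit without the 2 lens-rich arrays was added after seeing the data. Plots used Python 3.11.15 and matplotlib 3.10.9. A call is said to hold under every alternative where it held in each one in which its probe set was tested.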

Additional observations from a re-analysis of the deposited data

How the results depend on the processing

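The count of room air calls (1958, with 1133 higher and 825 lower) stayed within 1.5 times under the other scaling, floor, filter and prior settings and with 1 probe set a gene. With only the 6 arrays in the fit it was 923 (590 higher, 333 lower), 874 of them among the 1958. With the pigment score 545 were lower. Without the 2 lens-rich arrays 1115 were called, 717 higher and 398 lower. Leaving out 1 array gave 1192 to 1809 called, 722 to 1096 higher and 470 to 713 lower, lowest without day 7 replicate 3 (1192). The deposited scaling moved the higher share of the calls to 51.8% (57.9% in the reported fit), and the median of all probe sets to -0.073. The difference between conditions had 1 call without a filter and 1 with the replicate block, and 0 under all its other settings.

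For 223 called genes, 3630 of 4178 values under alternatives kept direction and call, 548 kept direction only and 0 reversed; 120 genes kept their call throughout. With the pigment score Pmel and Tyrp1, not called otherwise (0.44 and 0.23), were at -0.589 and -0.601, where the covariate itself holds them. The causes of these shifts were not tested. With the replicate number as a block 2286 were called, 1312 higher and 974 lower. Deviations of same-numbered room air arrays at day 12 and day 7 correlated at -0.241, 0.129 and -0.087. With 3 arrays a group, these values cannot decide whether the numbers pair the samples. A fold is a lower bound where arrays of the lower group lie at the floor.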

Other observations

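The genes below were chosen after their values were seen and stand for no tested group. Among genes known for thyroid hormone, Dio2 rose by 2.34 ± 0.25 with 1 of its 3 probe sets and Slco1c1 by 1.66 ± 0.26, while Crym, which binds the hormone, fell by 0.55 ± 0.11. Klf9, a target of the hormone receptor, rose with 3 of its 4 probe sets, the largest at 0.86 ± 0.14. Hr, a corepressor, rose by 0.57 ± 0.18 with 1 of its 2 probe sets. The receptor genes Thra and Thrb did not pass, with Thrb at -0.11 ± 0.30.

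Slc16a1, a lactate and pyruvate transporter, had 13.14, 13.42 and 13.10 at day 12, against 11.27, 11.68 and 11.09 at day 7 (1.87 ± 0.18, adjusted p = 1.3e-06). Slc6a6, the taurine transporter, rose by 2.11 ± 0.27, and the glycogen phosphorylases Pygm and Pygl by 1.44 ± 0.15 and 1.29 ± 0.27. Ppargc1a, a coactivator of mitochondrial genes, rose by 1.11 ± 0.19 with 1 of its 5 probe sets. Timp3, a matrix protein, rose by 1.79 ± 0.30 and Mlc1, a glial membrane protein, by 1.40 ± 0.23. Further probe sets of Timp3 that differed by 0.90 ± 0.30 and 0.47 ± 0.18 did not pass, nor did one of Slc6a6 at 0.98 ± 0.36. Among neuropeptides, Tac2 rose by 1.91 ± 0.24 with 1 day 7 array at the floor and Vip by 1.33 ± 0.17.

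Among the falls, all 3 probe sets of Cdk4, the kinase partner of cyclin D, were lower, with 11.02, 10.74 and 10.71 at day 12, against 12.23, 12.03 and 12.27 at day 7 for one of them (-1.35 ± 0.12, adjusted p = 4.12e-07). E2f1, a factor of the replication genes, fell by 0.87 ± 0.23. Jun fell by 0.90 ± 0.13 and 1.02 ± 0.17 in its 2 probe sets, while Fos rose. Txnip, an inhibitor of glucose uptake, fell by 1.23 ± 0.22, and Rcor2, a corepressor of immature neurons, by 1.09 ± 0.25. Cd24a, a surface protein of young neurons, fell in all 3 probe sets, with day 12 replicate 3 the highest of its group in each.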
